A study of Drosophila melanogaster with 2 samples.

Results

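The 10 Polycomb-group genes ph-p, ph-d, Pc, Psc, Su(z)2, Sce, Scm, E(z), esc and pho were examined for binding of HLH3B, among 18164 annotated genes on the major chromosome arms. They were chosen from the measured peak signals of the same data, in which ph-p had already stood out, so the counts below describe these genes and are not a test. HLH3B is a basic helix-loop-helix transcription factor of the Tal1 type. It was mapped by ChIP-seq in whole Drosophila melanogaster embryos, whose source label gives an age of 8 to 24 hours. The separate age tag of both samples holds another number of hours, far beyond embryonic life, and was not used. The embryos came from a strain labelled HLH3B-GFP, which carries an insertion that makes an HLH3B-eGFP fusion, and both biological replicates were precipitated with anti-GFP antibody. The series held 1 group of 2 replicates, with no other genotype, treatment or time, and cells of all tissues were mixed. The labels give neither the regulatory DNA that drives the fusion nor how many embryos were pooled.

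Polycomb-group proteins keep developmental genes silent through cell divisions. Polycomb repressive complex 1 (PRC1) compacts chromatin and carries a ubiquitin ligase for histone H2A, and Polycomb repressive complex 2 (PRC2) methylates histone H3 on the lysine that Polycomb recognises. In flies a DNA-binding complex, PhoRC, helps to bring both to Polycomb response elements. The genes for these proteins are themselves widely used in the embryo, and some of them lie as neighbouring duplicates, as ph-p beside ph-d and Psc beside Su(z)2.

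The data were peak lists deposited by the authors, with positions on dm6. Each peak has a signal value of the authors, whose scale the sources used here do not give, and signals are compared only within a list. A site is a peak summit in the gene body or up to 2000 bp upstream of the gene start. The main set is the conservative series-level list of 3846 peaks, each with an irreproducible discovery rate (IDR) of 0.01 or lower. The IDR estimates the rate of peaks whose ranks do not repeat among those ranked as well or better. A larger series-level list held 5814 peaks. Each replicate had a thresholded list, of 3992 peaks for replicate 1 and 3546 for replicate 2, and a ranked list of candidates with no such threshold, of 93496 and 86045 peaks. The lists give no read counts, and depth is therefore unknown.

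The 2 ph genes lie in tandem on the X chromosome and carried 7 of the 9 Polycomb-group sites. Their summit sequences are shown first because the strongest site lies where the copies differ. All are read from the RefSeq dm6 assembly on the minus strand, the strand of both genes, 5′ to 3′. The first pair is the stretch of ph-p that holds the strongest summit (X:2137245-2137492) and its counterpart in ph-d (X:2123677-2123731). Lower case marks 20 bp of flank on each side that aligns between the copies, and capitals mark the 208 bp of ph-p and the 15 bp of ph-d that lie between aligned blocks. The ph-p summit is base 139 of the printed run.
ph-p stretch: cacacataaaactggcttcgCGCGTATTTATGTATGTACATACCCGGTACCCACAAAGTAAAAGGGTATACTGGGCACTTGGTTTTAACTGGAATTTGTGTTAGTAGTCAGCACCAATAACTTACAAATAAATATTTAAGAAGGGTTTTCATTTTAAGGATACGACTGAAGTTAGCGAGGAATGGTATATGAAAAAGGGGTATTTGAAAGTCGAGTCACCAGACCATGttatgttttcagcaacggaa
ph-d stretch: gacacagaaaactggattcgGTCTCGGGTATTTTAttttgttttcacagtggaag
The next lines give 101 bp centred on 4 further summits, with capitals on motif matches. They are the intronic ph-p sites of signal 284 (X:2135304-2135404) and 170 (X:2134426-2134526), then the ph-d upstream sites of signal 249 (X:2123995-2124095) and 174 (X:2124203-2124303).
ph-p 284: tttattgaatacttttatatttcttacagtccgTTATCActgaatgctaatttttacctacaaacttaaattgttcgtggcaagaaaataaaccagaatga
ph-p 170: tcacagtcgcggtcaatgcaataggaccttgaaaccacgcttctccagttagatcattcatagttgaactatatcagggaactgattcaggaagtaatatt
ph-d 249: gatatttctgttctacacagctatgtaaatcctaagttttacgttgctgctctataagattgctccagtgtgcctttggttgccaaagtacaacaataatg
ph-d 174: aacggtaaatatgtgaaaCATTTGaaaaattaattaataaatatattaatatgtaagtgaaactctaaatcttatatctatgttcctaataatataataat

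HLH3B peaks of the main set lay at 4 of the 10 genes, ph-p, ph-d, Psc and E(z), or 40% (Wilson 95% interval 16.8 to 68.7%, counting error only). Over all genes the share was 20.3%, and over the 7892 genes whose window was as long as those of the members (between their shortest and longest) it was 24.6%. Of the PRC1 genes among the 10 members 3 of 7 had a site, of the PRC2 genes among them 1 of 2, and pho of PhoRC had none. Genes of these complexes outside the 10 were not counted here. With so few genes no difference between the complexes can be tested. The sites numbered 9, with 4 at ph-p, 3 at ph-d, 1 at Psc and 1 at E(z). Among all genes 1.85% had 3 or more sites, and in the main set both ph genes were among these. The limit of 3 equals the ph-d count. In each thresholded replicate list ph-p had 4 peaks and ph-d had 2, so ph-d was below the limit there. The share of 1.85% was not restricted to genes of like window length, and the windows were 14.2 kb for ph-p and 9.56 kb for ph-d.

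The larger series-level set gave 6 of 10 genes, adding Su(z)2 and Sce, against 27.3% of all genes. The same 4 genes carried the calls in each replicate alone: 4 of 10 in the thresholded list of replicate 1, against 20.7% of all genes, and 4 of 10 in that of replicate 2, against 19.7%. Of 3917 candidates past the IDR threshold, 71 were absent from the main set, and 0 of these lay at a member. The weakest member site, at ph-d, had a signal of 94.4 and an IDR of 0.00274. Just outside the threshold came a ph-p candidate with a signal of 78.2 and an IDR of 0.025, one of Sce with 59.3 and 0.0279, and one of ph-d with 60.1 and 0.0497.

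ph-p, which encodes the proximal Polyhomeotic protein, a PRC1 core subunit with a SAM domain, had the strongest site of the 10 genes (gene FBgn0004861, X 2126210 to 2138371, minus strand). The site (X 2137183 to 2137527) had a signal of 1959, rank 6 of the main set. Its signal was 946 in replicate 1 and 1042 in replicate 2 (mean 994 ± 67.6, SD, n = 2), and it ranked 6 in both thresholded replicate lists. The summits of the replicates were 14 bp apart. The summit lay in an intron, 1017 bp downstream of the gene's first start and 499 bp upstream of the second start at 2136855. The third start at 2136622 lies 1749 bp from the first.

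The next ph-p site (X 2137720 to 2138050) had a signal of 894, rank 71, with 469 in replicate 1 and 436 in replicate 2. Its summit was in the 5′ UTR, 472 bp downstream of the first start. The strongest site exceeded it by 2.19 times in the main set, 2.02 times in replicate 1 and 2.39 times in replicate 2. A pair of intronic sites followed downstream of the third start. The first of them had a signal of 284, rank 659, at 1268 bp, with 132 and 149 in replicates 1 and 2. The other had 170, rank 1456, at 2146 bp, with 93 and 83.4. All 4 ph-p sites were in both thresholded replicate lists, and the 4 summits spanned 3423 bp. The larger set added 1 more peak of signal 78.2, 31 bp downstream of the third start. In the replicate lists the candidates closest to it were 30.6 at 110 bp (IDR 0.0387) in replicate 1 and 55.7 at 20 bp (IDR 0.014) in replicate 2.

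ph-d, which encodes the distal Polyhomeotic protein and is a duplicate of ph-p, had weaker sites (gene FBgn0004860, X 2115727 to 2123286, minus strand). Between the end of ph-p and the first ph-d start lie 2923 bp. The strongest site (X 2123940 to 2124125) had a signal of 249, rank 808, with 103 in replicate 1 and 144 in replicate 2 (mean 123 ± 28.4, SD, n = 2). Its summit lay 759 bp upstream of the first start. The strongest ph-p site was 7.87 times as high in the main set, 9.18 times in replicate 1 and 7.24 times in replicate 2.

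The second ph-d site (X 2124085 to 2124420) overlapped the first, with a summit 967 bp upstream of the start. It had a signal of 174, rank 1408, with 73 in replicate 1 and 50 in replicate 2, and it was absent from the thresholded list of replicate 2, where its IDR was 0.0486. The weakest ph-d site (X 2122937 to 2123272) had a signal of 94.4, rank 3013, in the 5′ UTR 181 bp downstream of the start. Its values were 44.8 in replicate 1 (IDR 0.019, below that list's threshold) and 50.6 in replicate 2 (IDR 0.00111). These were the only 2 of the 9 member sites missing from a thresholded replicate list.

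**Figure D1:**
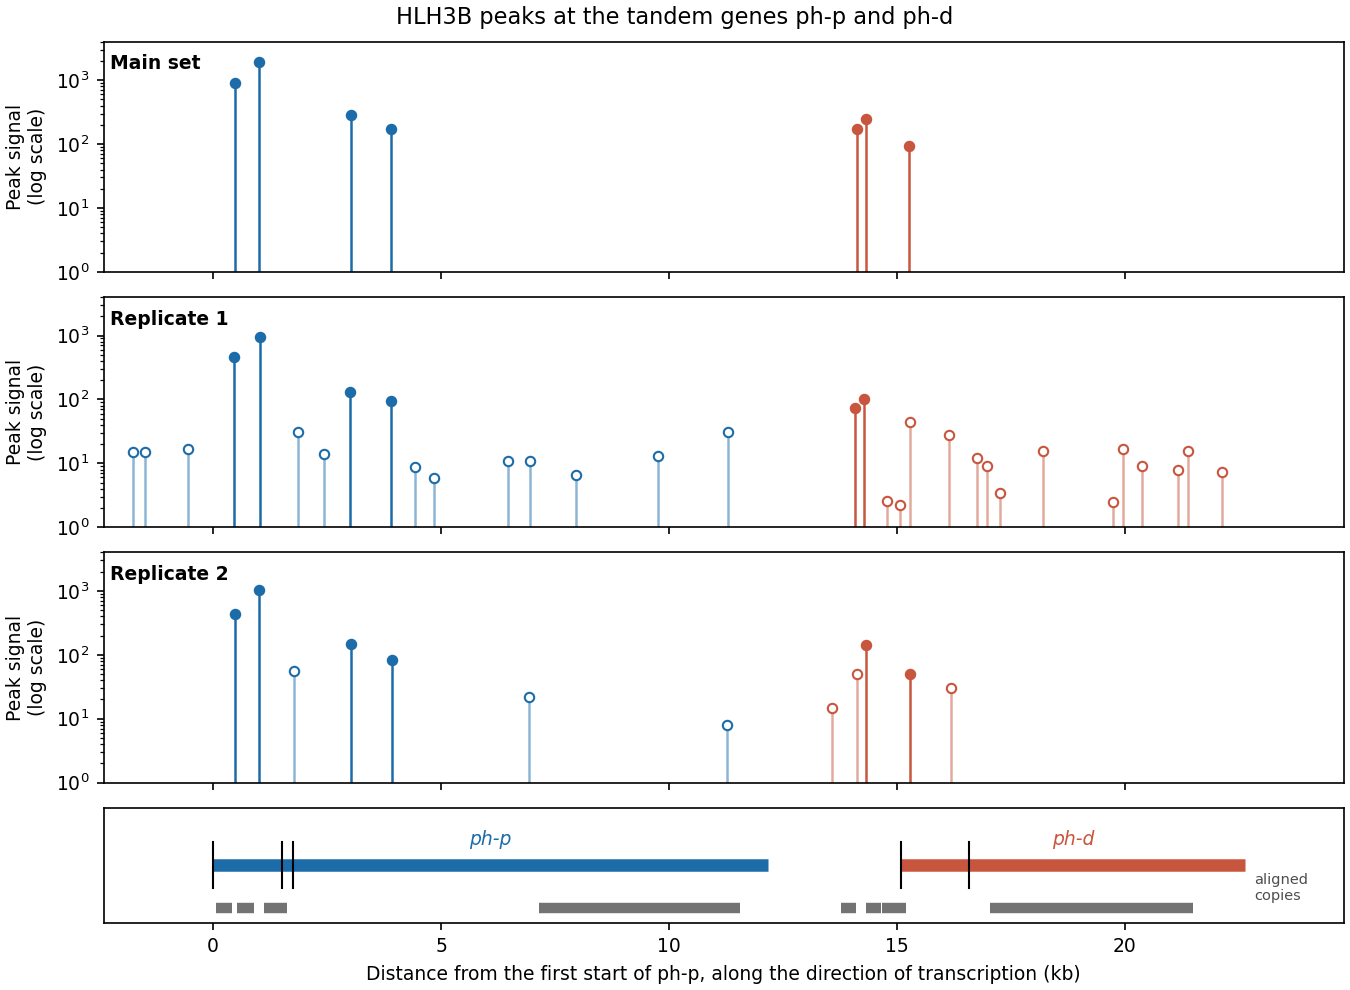
Peak signal (log scale) in the windows of ph-p (blue) and ph-d (red) against the distance in kb from the first ph-p start along the direction of transcription, in the main set and in the candidate lists of each replicate; filled circles passed an IDR of 0.01, open circles did not, black ticks are annotated starts and grey bars are stretches that align between the genes. The 4 ph-p sites and 3 ph-d sites of the main set lie between 967 bp upstream and 2146 bp downstream of the nearest start. Each has a candidate in both replicates, and the open candidates are more numerous in replicate 1.

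The ph copies were compared by sequence to place these summits. Of the ph-p window 39.9% aligned to ph-d, and of the ph-d window 59.2% aligned to ph-p. The longest aligned block covered 4480 bp at 92% identity in the gene bodies, and no main-set summit fell in it. The second ph-p start and the first ph-d start lay 3 bp apart in an aligned block of 529 bp at 90.7% identity. Measured from these matching starts, the strongest summits were 499 bp upstream in ph-p and 759 bp upstream in ph-d. The strongest ph-p summit was in the 208 bp printed in capitals above, where ph-d has 15 bp. Of the 4 summits upstream of these matching starts, 3 lay outside the aligned blocks: this one, the ph-p summit of signal 894 and the ph-d summit of 174. The ph-d summit of 249 lay inside a block. In a global alignment of the upstream regions 12 of the 101 bp around the strongest ph-p summit (11.9%) were identical in ph-d. Over the whole ph-p region the share was 74.2%. At the other upstream summits the identical bases were 87 of 101 bp at the ph-p site of signal 894, 52 of 101 at the ph-d site of 249 and 63 of 101 at the ph-d site of 174. The global alignment was added after the summits had been placed, and by it 1 of the 4 had under 50% identity. Identity in the aligned blocks was 92, 90.7, 81 and 70.5%. Reads that fit both copies can be assigned to either gene or dropped. The sources used here do not say how the authors treated such reads, so levels in aligned stretches are uncertain.

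Psc, which encodes Posterior sex combs, a RING-finger PRC1 subunit, had 1 site (gene FBgn0005624, 2R 12965997 to 12980994, minus strand). The site (2R 12975473 to 12975692) had a signal of 420, rank 332, with 241 in replicate 1 and 198 in replicate 2 (mean 219 ± 30.2, SD, n = 2). It was intronic, 5077 bp downstream of the nearest start, the farthest from a start of the 9 member sites.

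Su(z)2, the neighbouring paralogue of Psc, had no main-set site (gene FBgn0265623, 2R 12996501 to 13007911, plus strand). Its peak in the larger set had a signal of 84.5, 1595 bp downstream of a start. In replicate 1 the candidate there had a signal of 56.2 with an IDR of 0.748, and the single Su(z)2 candidate of replicate 2 lay 7000 bp downstream of that start with a signal of 13. The larger-set call at Su(z)2 was therefore seen in the list of 1 replicate. Between the 2 genes lay a stronger site (2R 12985061 to 12985357) with a signal of 1142, rank 35. It was 4211 bp upstream of Psc, 11296 bp upstream of Su(z)2 and 162 bp upstream of the non-coding gene lncRNA:CR44339, and it is not counted for either Polycomb gene.

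E(z), which encodes the histone methyltransferase of PRC2, had 1 site close to its start (gene FBgn0000629, 3L 10634575 to 10638130, minus strand). The site (3L 10637887 to 10638147) had a signal of 441, rank 305, with 214 in replicate 1 and 228 in replicate 2 (mean 221 ± 9.71, SD, n = 2). Its summit was in the 5′ UTR, 78 bp downstream of the first start, and the replicate summits were 3 bp apart. The windows of CG18628 and Cnep1r2 also hold this summit, and of all starts that of E(z) is the nearest. Which of these genes the site acts on was not tested. esc, the WD40-repeat subunit of PRC2, had no site (gene FBgn0000588, 2L 11827204 to 11829405, minus strand). Its best candidate had a signal of 65.9 at 69 bp upstream of the start, with an IDR of 0.0555 in the replicate comparison and 0.0105 in the candidates behind the larger set. In replicate 1 the candidate nearest the start had 47.6 at 25 bp upstream (IDR 0.0499), and in replicate 2 it had 21.7 at 63 bp upstream (IDR 0.686). Among genes without a main-set site 6.63% had a candidate as strong as that of esc in the replicate comparison.

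**Figure D2:**
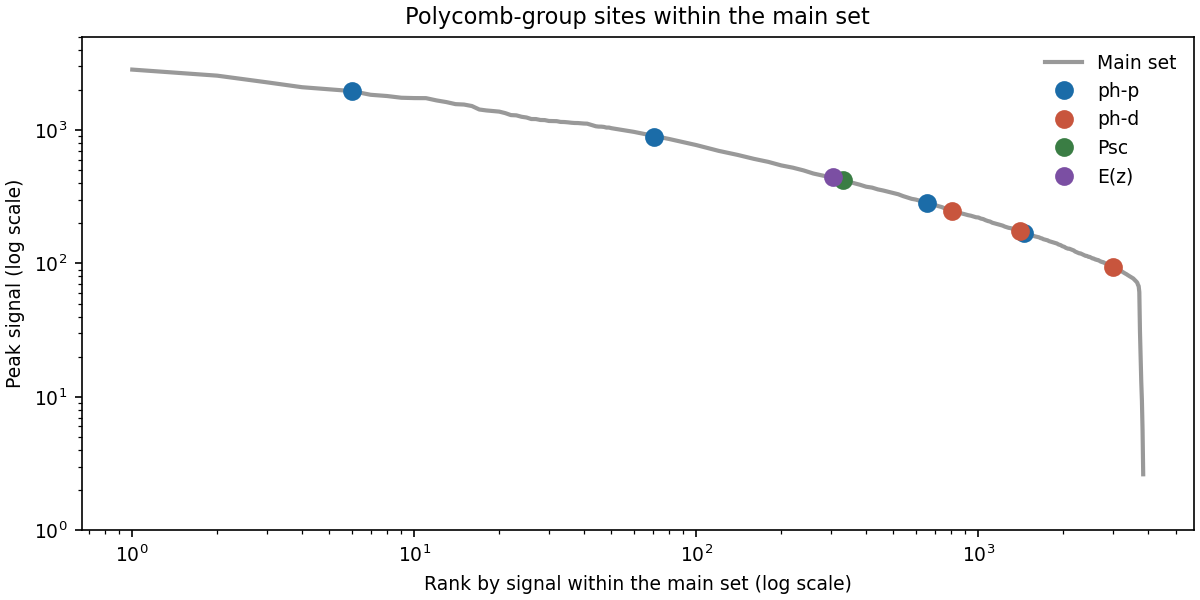
Peak signal against rank by signal in the main set (grey line, log scales), with the 9 Polycomb-group sites marked by gene. The ph-p sites rank 6, 71, 659 and 1456, E(z) 305, Psc 332 and the ph-d sites 808, 1408 and 3013.

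Of the 9 sites 8 were above the median signal of the main set, 6 were in its strongest 25% and 4 in its strongest 10%. The median signal of the 9 sites was 284, against 139 over the main set. Since ph-p was chosen for its signal, this is a description. All 9 had a candidate within 100 bp in both replicates, against 93.7% of main-set sites, and 7 of 9 had a thresholded peak there in both, against 61.6%. The main set was selected for ranks that repeat between these same replicates, so this repeat is a description and not separate support. The ratio of replicate 1 to replicate 2 ranged from 0.715 at the strongest ph-d site to 1.46 at the next ph-d site. For the ph-p sites it lay between 0.886 and 1.12.

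**Figure D3:**
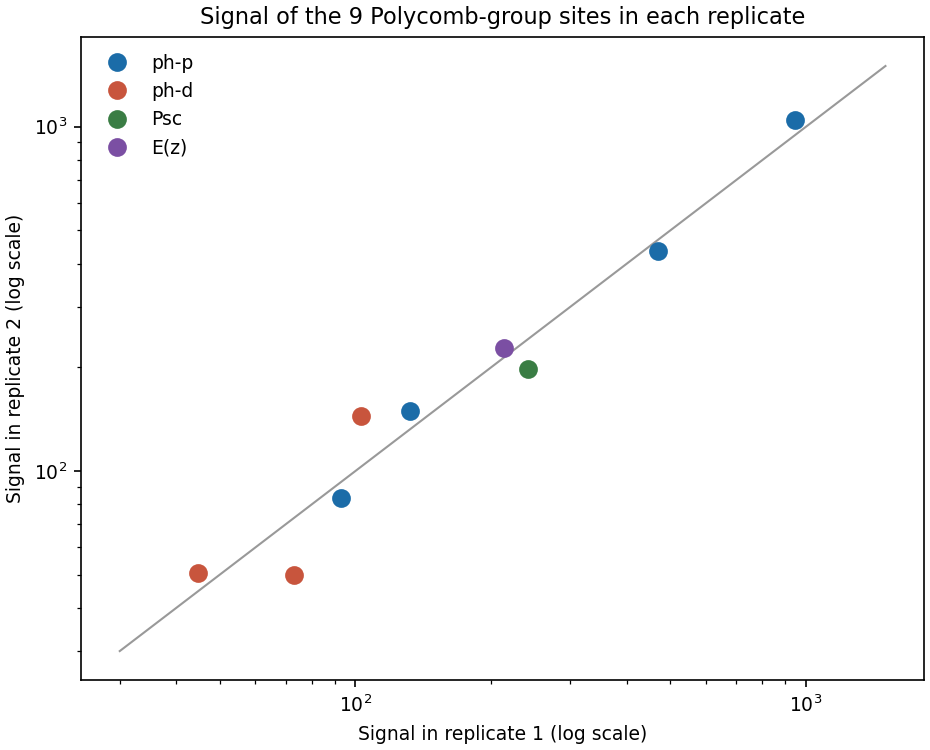
Signal of the 9 Polycomb-group sites in the candidate lists of replicate 1 and replicate 2 (log scales), with a line of equal values. The points lie near the line, with the ph-d sites at 103 and 144 and at 73 and 50 the farthest from it.

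The sites were near starts in 6 of 9 cases, within 1000 bp, against 53.6% of main-set sites. Of these 6, 3 were upstream and 3 downstream of the nearest start. For all 9 the nearest start of any gene was that of the member itself. By annotation 3 summits were in a 5′ UTR, 4 in an intron and 2 outside the gene.

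Pc, which encodes Polycomb, the chromodomain protein of PRC1, had no site (gene FBgn0003042, 3L 21306138 to 21318020, minus strand). Its best candidate in the replicate comparison had a signal of 49 at 987 bp downstream of the start (IDR 0.0722), with 26.1 in replicate 1 at 990 bp and 25 in replicate 2 at 1008 bp. Among genes without a site 18% had one as strong. A main-set site of signal 694, rank 123 (3L 21304449 to 21304700), lay 1558 bp past the end of Pc, with its summit 78 bp downstream of the start of CG11309.

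Sce, the RING-finger ubiquitin ligase of PRC1, had no main-set site (gene FBgn0003330, 3R 27680431 to 27682029, minus strand) but one in the larger set with a signal of 59.3, 702 bp upstream of its start. The candidate repeated at the same place, with 31.7 at 691 bp upstream in replicate 1 and 27.1 at 690 bp upstream in replicate 2, and neither passed its list's threshold (IDR 0.161 and 0.112). Scm, which encodes Sex comb on midleg, a SAM-domain protein that binds PRC1, had candidates in replicate 1 but none in replicate 2 or in the replicate comparison (gene FBgn0003334, 3R 9633359 to 9637611, minus strand). Its best in replicate 1 had a signal of 37.3, 2914 bp downstream of the start (IDR 0.0478), and its best behind the larger set had 38.4 at 2904 bp (IDR 0.191). The nearest main-set site outside the window was 14.8 kb away for Scm and 22.9 kb away for Sce.

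pho, which encodes the DNA-binding protein Pleiohomeotic, lies on the small chromosome 4 (gene FBgn0002521, 1172469 to 1181628, minus strand). It had 9 candidates in replicate 1, the best of signal 20.5 (IDR 0.562), and none in replicate 2 or in either series-level candidate list. The nearest main-set site was 145 kb from its window. Chromosome 4 as a whole held 3 main-set sites, 1074 candidates in replicate 1 and 33 in replicate 2.

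**Figure D4:**
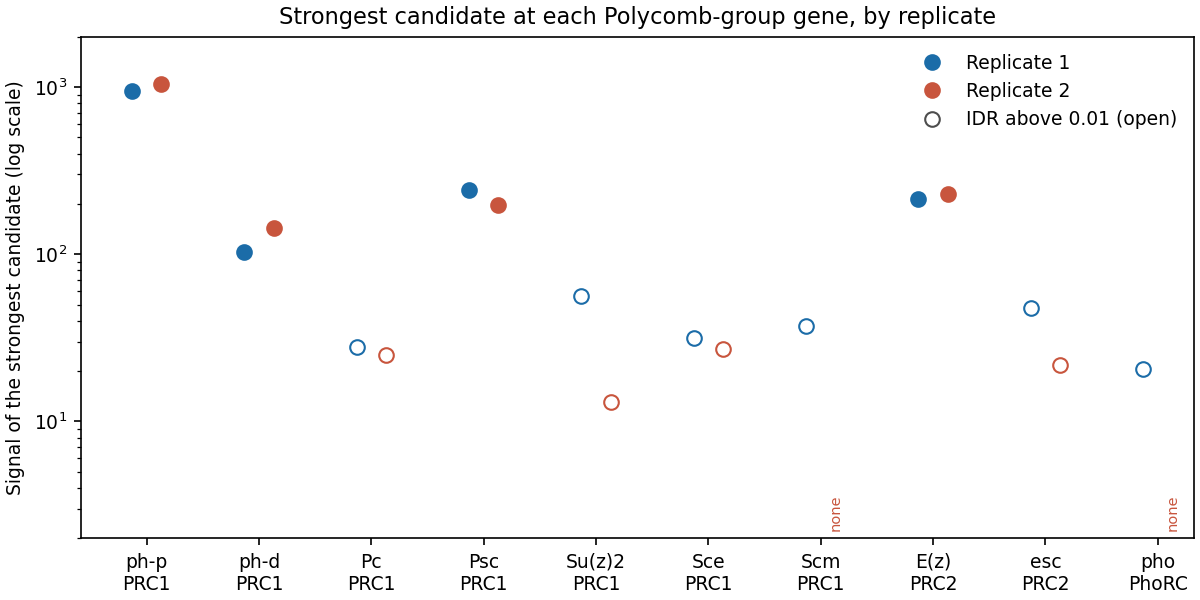
Signal (log scale) of the strongest candidate in the window of each of the 10 genes, in replicate 1 (blue) and replicate 2 (red); filled circles passed an IDR of 0.01 in that list, open circles did not. ph-p, ph-d, Psc and E(z) are filled in both replicates, from 103 upward, and the other 6 genes are open, at 56.2 or lower, with no candidate for Scm and pho in replicate 2.

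Counted with no IDR threshold, candidates at these genes were more numerous in replicate 1. All 10 genes had a candidate in replicate 1, against 81.1% of genes, and 8 of 10 in replicate 2, against 82.1%. In the series-level candidate lists the counts were 8 of 10 in the replicate comparison, against 74.0%, and 9 of 10 behind the larger set, against 89.3%. The 10 windows held 119 candidates in replicate 1 and 34 in replicate 2, or 1.2 and 0.344 per kb, where all genes held 0.874 and 0.638 per kb. Of these, 8 in each replicate passed the threshold, and 111 and 26 did not. Replicate 1 had more at 9 of the 10 genes and the counts were equal at esc, with 4 and 4. Of all genes 62.0% had more in replicate 1. Su(z)2 had 18 against 1, Scm 10 against 0 and pho 9 against 0. A count of 9 or more in replicate 1 with 0 in replicate 2 was found at 1.66% of genes, a limit set after these values were seen. The cause of the difference was not tested.

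**Figure D5:**
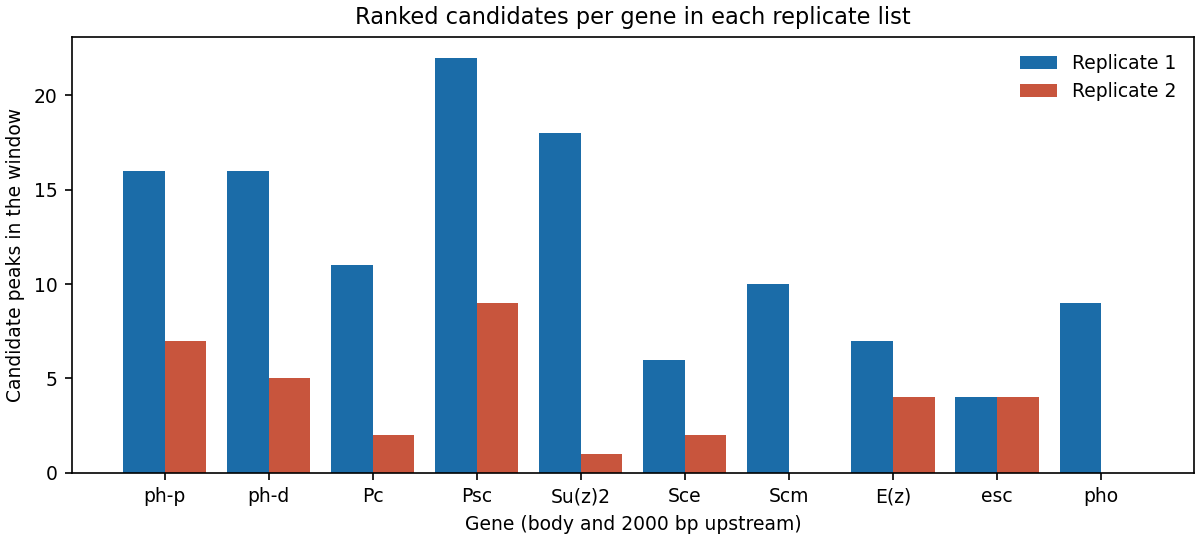
Number of ranked candidate peaks in the window of each gene, in replicate 1 (blue) and replicate 2 (red), with no IDR threshold. Psc has the most in both, 22 and 9, and Scm and pho have none in replicate 2.

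Base composition and motifs were read within 50 bp of the 9 summits. Their G+C content was 29.3% ± 7.86 (SD, n = 9 sites), against 32.6% ± 9.49 over all main-set summits and 44.2% ± 9.76 in windows 300 bp to each side. It was 32.7% at the strongest ph-p summit and 51% beside it. CANNTG, the E-box that bHLH proteins bind, was found at 2 of 9 summits, as CATTTG at the ph-d site of signal 174 and CAACTG at Psc, against 33.2% of main-set summits and 42.8% of the side windows. CAGATG and CAGCTG, both special cases of CANNTG, were at none of the 9, against 2.81% and 2.89%. The GATA motif (GATA with A or T before it and A or G after it) was at 2, the ph-p site of signal 284 and Psc, against 22.4%. TTAAAA was at 2, the strongest ph-p site and Psc, against 35.4%. GAGAG, which is bound by GAGA factor, GCCAT, the core of the Pho motif, and TATCGATA, the DREF motif, were at none, against 8.48%, 12.5% and 0.988%. Motifs were searched on both strands. The strongest ph-p summit thus held only TTAAAA among the motifs searched, 13 bp downstream of it and read as TTTTAA on the printed strand, and the E(z) summit held none of them.

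Other genes of the same regulatory system were read from lists of 22 further Polycomb-group and 18 Trithorax-group genes, the latter opposing Polycomb silencing. A main-set site lay at 9 of the 22 (40.9%) and at 7 of the 18 (38.9%), close to the 40% of the members and above the 20.3% of all genes. For these 2 lists no share over genes of like window length was taken, and longer windows can hold more sites. The shares count windows, and the groups differ by nearest start. At all 9 member sites the nearest start was that of the member, but several strongest sites of both lists were nearest to another gene. Among the bound Trithorax genes only trx had its strongest summit nearest to its own start. Among bound genes the median of the strongest signal was 430 for the members, 164 for the other Polycomb genes, 213 for the Trithorax genes and 169 for all genes. The value for the members rests on 4 genes of a group chosen with its signals known, and is a description. The strongest sites of the other Polycomb genes were at phol, the paralogue of pho (signal 1060, rank 46, 492 and 568 in replicates 1 and 2), Trl, which encodes GAGA factor (1043, rank 48, 476 and 566), dsp1 (276) and jing (167). Apart from that of Trl, these summits were nearer to the start of another gene: CG9921 for dsp1 and lncRNA:CR46075 for jing. The phol summit was nearer to the start of CG3552, at 121 bp upstream, than to that of phol, at 1510 bp upstream. Of the Trithorax genes, osa had a site of 961 and brm one of 933, both encoding subunits of the Brahma remodelling complex, and kis had 331 and trx 213. The osa summit lay 13957 bp from a start of osa and 698 bp from that of lncRNA:CR46035. The brm summit was nearer to the start of Arl1, and the kis summit lay 8 bp from that of lncRNA:CR44222. No site of either list reached the 1959 of ph-p.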

How the data were processed

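Peak lists from anti-GFP ChIP-seq of whole embryos (2 replicates, 1 group, sonicated to 200 to 800 bp per the labels) were used as deposited, on dm6. The score was deposited by the authors as a scaled IDR capped at 1000. The signal is the authors' own value, whose scale no source used here states. The −log10 IDR is also the authors' and gave the threshold of 0.01. Per the deposited text notes, the lists were derived from the alignments and a control, which was not analysed here, and thresholded lists also from 1 further file. No source used here names the caller or the aligner. Depth is unknown.

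Genes came from Ensembl release 115 (BDGP6.54) on 6 arms, without transposable elements, and sequence from the RefSeq assembly. Peaks on these arms fitted inside them. Peaks elsewhere were in no window: the arms held all 3846 peaks of the main set and all 3992 of the replicate 1 thresholded list, 5812 of 5814 in the larger set and 3508 of 3546 in the replicate 2 thresholded list. Of the candidates they held 93332 of 93496 in replicate 1, 84325 of 86045 in replicate 2, 89714 of 90471 in the replicate comparison and 121620 of 123541 behind the larger set. Summits were counted in windows from 2000 bp upstream to the gene end, and summits within 100 bp matched. The copies were aligned with BLAST 2.17.0 and Biopython 1.88. Scripts ran under Python 3.11.15 with pandas 2.3.3, numpy 2.4.6, matplotlib 3.10.9 and scipy 1.17.1. The counting was tested on simulated data, where 200 of 200 planted summits were found. The members and lists were chosen with earlier results of these data known. All 10 members are named, with up to 4 genes of each other list by strongest site. Of 50 list entries 2 were matched by a current symbol. Alternatives covered windows, lists, replicates, thresholds and gene assignment.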

Additional observations from a re-analysis of the deposited data

How the results depend on the processing

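The number of genes with a site was 4 under the alternatives tried, except 6 in the larger set and 5 with 2000 bp downstream counted as well, where Pc joined. The number of sites, 9 as reported, ranged from 6 (strongest 25% by signal) to 12 (larger set). The strongest ph-p summit was 499 bp upstream of the nearest start but 1017 bp downstream when the gene's first start was used. In the larger set 5 PRC1 genes had a site in place of 3, and the strongest sites kept nearly the same ranks, 6 at ph-p (6 in the main set), 306 at E(z) (305), 333 at Psc (332) and 822 at ph-d (808). Their percentiles of 0.103% (0.156%), 5.26% (7.93%), 5.73% (8.63%) and 14.1% (21%) differ because the larger list is longer, and show no change. These sites have the same signals and summits in both lists, so the kept ranks are not a separate check. The Psc summit was 5413 bp from the gene's first start in place of 5077 bp. With 1 replicate left out, E(z) ranked in the top 8.43 to 8.49% with its summit at 75 to 78 bp, Psc in the top 6.69 to 10.8% with its summit at 5077 to 5091 bp, and ph-d ranked in the top 18.8 to 29.2% (21% in the main set) with its summit at -801 to -767 bp. Under the global alignment, added after the data were seen, 1 of 4 upstream ph summits had under 50% identity to the other copy, where 3 lay outside the local blocks. No paired analysis was possible because there is 1 group. Intervals cover counting error only, and depth is unknown, so a missing call does not show missing binding.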
